A study of Mus musculus with 13 samples.

Results

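The genes described here encode matrix metalloproteinases (Mmp), the ADAMTS proteases (Adamts), the ADAMTS-like proteins (Adamtsl) and the tissue inhibitors of metalloproteinases (Timp) of the mouse. They were chosen by a rule on the symbol, with earlier results of these data known. The rule took every protein-coding gene of the deposited tables named Mmp, Adamts, Adamtsl or Timp followed by a number and at most 1 letter. The rule found 44 genes among the 16382 of the tables, comprising 19 Mmp, 16 Adamts, 5 Adamtsl and 4 Timp genes. A further 7 genes that the annotation names in the same way (Mmp1a, Mmp1b, Mmp20, Mmp21, Adamts13, Adamts18 and Adamts19) were not analysed here.

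RNA-seq was carried out on wild-type C2C12 cells, a mouse myoblast line whose cells leave the cell cycle and fuse into multinucleated myotubes when serum is lowered. Both groups were differentiated in low serum until day 8 and were then cultured for 24 h with the solvent DMSO alone (CON) or with 10 μM palmitoylethanolamide (PEA), an endogenous fatty acid amide. There were 6 libraries in each group, with between 12354845 and 50397444 estimated counts, and CON replicate 1 was 2.25 times deeper than any other library. The 6 libraries of a group stand for duplicate wells of an experiment carried out 3 times on 1 cell line, with no map of well to library. All SDs and tests here treat the 6 as separate samples, so the p-values measure the spread between libraries, part of which is between wells of the same repeat.

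Matrix metalloproteinases are zinc endopeptidases that are secreted, or anchored at the cell surface, as inactive proenzymes and cleave collagens, gelatins, proteoglycans and other extracellular proteins once activated. The ADAMTS proteases are their secreted relatives, carry thrombospondin repeats that hold them in the matrix, and include the main enzymes that cut the large proteoglycans aggrecan and versican and those that trim procollagen. ADAMTS-like proteins share the matrix-binding repeats but lack the catalytic domain, and several bind fibrillin microfibrils. TIMP proteins bind the active site of these enzymes, and skeletal muscle uses the system to remodel basement membrane and interstitial matrix during myoblast migration, fusion and repair.

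Stretches of promoter are shown first because the 2 largest families differed there in a short motif. Bases 150 to 1 upstream of the annotated start are given 5′ to 3′ on the strand of the gene (GRCm39). Capitals mark, on either strand, the AP-1 motif TGANTCA, the GC box GGGCGG and the TATA motif TATAAA. The first group holds 4 members whose RNA differed between CON and PEA, 3 of them in every leave-one-out fit. The second holds 3 stromelysin and collagenase genes of the Mmp cluster on chromosome 9, all with the AP-1 motif. Mmp8, a collagenase of the same cluster, lacks the motif and is not shown.

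Mmp2, chr8:93553752-93553901, + strand: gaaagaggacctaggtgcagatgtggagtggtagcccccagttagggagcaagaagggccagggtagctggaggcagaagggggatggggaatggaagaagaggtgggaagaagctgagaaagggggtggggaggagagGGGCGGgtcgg
Timp3, chr10:86136086-86136235, + strand: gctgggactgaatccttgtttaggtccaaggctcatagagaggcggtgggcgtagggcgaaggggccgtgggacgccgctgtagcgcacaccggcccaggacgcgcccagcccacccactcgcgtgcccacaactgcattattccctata
Adamts1, chr16:85600010-85600159, - strand: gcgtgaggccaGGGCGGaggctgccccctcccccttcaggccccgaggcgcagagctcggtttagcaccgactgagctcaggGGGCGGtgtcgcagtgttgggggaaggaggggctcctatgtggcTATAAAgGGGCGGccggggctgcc
Adamtsl3, chr7:81984495-81984644, + strand: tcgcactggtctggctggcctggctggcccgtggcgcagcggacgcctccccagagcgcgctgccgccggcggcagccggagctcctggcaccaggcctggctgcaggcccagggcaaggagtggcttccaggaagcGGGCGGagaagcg

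Mmp3, chr9:7445672-7445821, + strand: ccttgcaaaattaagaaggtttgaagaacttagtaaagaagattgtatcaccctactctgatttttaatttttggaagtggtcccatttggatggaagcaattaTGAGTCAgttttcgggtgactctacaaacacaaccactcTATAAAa
Mmp10, chr9:7502203-7502352, + strand: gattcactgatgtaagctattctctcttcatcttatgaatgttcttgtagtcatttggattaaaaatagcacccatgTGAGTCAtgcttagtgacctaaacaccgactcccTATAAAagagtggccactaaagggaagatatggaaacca
Mmp13, chr9:7272364-7272513, + strand: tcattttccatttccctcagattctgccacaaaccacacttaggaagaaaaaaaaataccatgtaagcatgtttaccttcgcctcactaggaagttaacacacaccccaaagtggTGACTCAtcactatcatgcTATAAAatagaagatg

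Over the full 250 bases upstream, TGANTCA occurred in 8 of the 19 Mmp genes, in 1 of the 16 Adamts genes and in no Adamtsl or Timp gene, against 6.17% of the 21770 protein-coding promoters of the same length. The Mmp genes holding it were Mmp9, Mmp19, Mmp28 and, all from the cluster on chromosome 9, Mmp3, Mmp7, Mmp10, Mmp12 and Mmp13. The Adamts gene was Adamts3. Of these 9 genes, 4 had too few counts to be tested between CON and PEA by edgeR and none of the other 5 was called, that is had an adjusted p below 0.05, beside 11.0% of all tested genes. Mmp3 had an unadjusted p under 0.05, and DESeq2 called it (adjusted p = 0.0498). GGGCGG occurred in 19 of the 44 members against 36.3% of all promoters, TATAAA in 9 against 11.9%, and CCAAT (searched over the same windows) in 11 against 36.5%. Each match describes letters in the window and not a site in use.

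Levels were compared between genes as TPM, the number of transcripts scaled to the same total in each library, computed from the estimated counts and exon lengths over the genes of the tables. The median tested gene was 0.086 (log2) higher in PEA on this scale, so TPM here compares genes and not groups. Timp2, an inhibitor that also takes part in the activation of pro-MMP2, ranked highest at 1056 ± 113 TPM in CON and 1197 ± 72.7 TPM in PEA (mean ± SD, n = 6 in each group here and below). Mmp2, the gelatinase A that cleaves denatured collagen and basement membrane collagen, followed with 846 ± 55.0 and 797 ± 42.0 TPM. Timp1, a soluble inhibitor of most secreted MMPs, stood at 628 ± 51.3 and 721 ± 37.3 TPM, and Mmp14, the transmembrane protease that activates pro-MMP2 at the cell surface, at 174 ± 18.4 and 179 ± 10.1 TPM. These 4 genes lay well above the rest, so that the most abundant transcripts of the family were those of 1 gelatinase, its activator and 2 inhibitors.

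The next levels were close to each other and are listed in the order of the mean over all libraries, not of CON alone. Timp3, the inhibitor that is retained in the matrix and acts on ADAMTS proteases as well as MMPs, averaged 43.7 ± 6.67 TPM in CON and 64.0 ± 6.31 TPM in PEA. Adamtsl5, Mmp11, Adamts7, Adamts14, Mmp19, Adamtsl4, Mmp3 and Adamts1 followed with CON means between 29.96 and 50.5 TPM, and in CON the mean ± SD of each overlapped with that of its neighbours in this order. Adamts5, Mmp15, Adamts2, Adamts4, Adamts6 and Adamtsl3 lay between 6.27 and 24.8 TPM in CON. The remaining 11 of the 30 tested members, among them Mmp28 (4.83 TPM over all libraries), Mmp13, Mmp16, Mmp8 and Mmp10, were below 5 TPM.

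**Figure D1:**
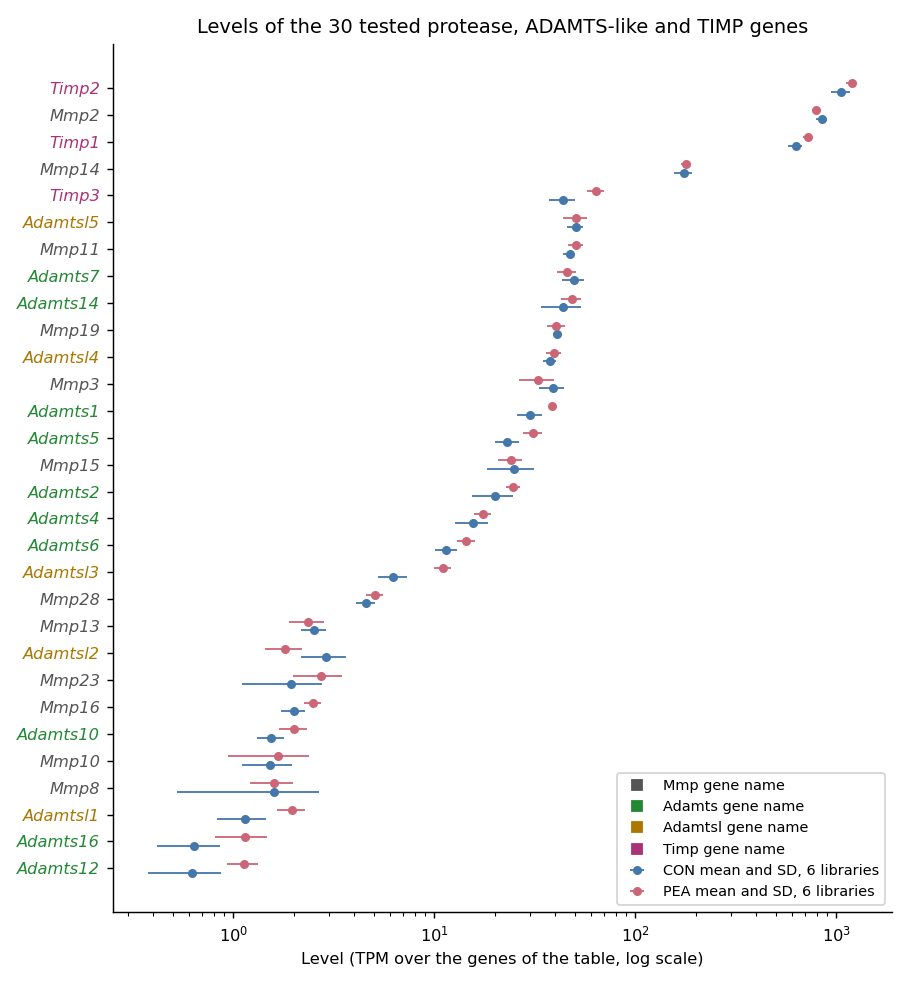
Level of each of the 30 tested genes in TPM on a log axis, with the mean (point) and SD (bar) of 6 CON libraries in blue and 6 PEA libraries in red. Timp2, Mmp2, Timp1 and Mmp14 stand apart at the top, with Timp2 at 1056 TPM in CON and 1197 TPM in PEA.

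The comparison of PEA with CON asked which transcripts of the myotubes respond to 24 h of PEA. Testing used the quasi-likelihood test of edgeR over the 13142 genes that its filter on low counts let through, p was adjusted by the Benjamini-Hochberg method over all of them, and a gene is called changed below an adjusted p of 0.05. Of the 44 members, 30 passed the filter and 9 were called, 7 higher and 2 lower in PEA, while 11.0% of all tested genes were called (6.31% higher and 4.74% lower). DESeq2 called 11 members, the 9 among them, beside 14.5% of all genes with an adjusted p (7.48% higher and 7.03% lower). Adamts1, Adamts5, Adamts6, Adamts12, Adamtsl1, Adamtsl3 and Timp3 rose, and Mmp2 and Adamtsl2 fell. The median log2 fold change was 0.08 over the 30 members and 0.01 over all genes tested, and 19 of the 30 lay above 0. In bulk RNA, fewer cells of a type cannot be told apart from less RNA per cell.

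The counts by family are read beside the shares of all tested genes above and, at an unadjusted p under 0.05 by edgeR, beside 14.3% higher and 13.1% lower. Among the 12 tested Mmp genes 1 fell and none rose by edgeR, with a median log2 fold change of -0.04. At an unadjusted p under 0.05, 1 Mmp gene was higher and 2 were lower, and DESeq2 called 0 higher and 2 lower. Of the 10 tested Adamts genes 4 rose and none fell by edgeR, 9 lay above 0 and the median was 0.27. At an unadjusted p under 0.05, 6 Adamts genes were higher and 1 was lower, and DESeq2 called 5 higher and 0 lower. The 5 Adamtsl genes split into 2 that rose, 1 that fell and 2 that were not called, with a median of -0.01. All 3 tested Timp genes lay above 0, with a median of 0.12, and 1 was called. These counts and medians carry no test of their own.

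**Figure D2:**
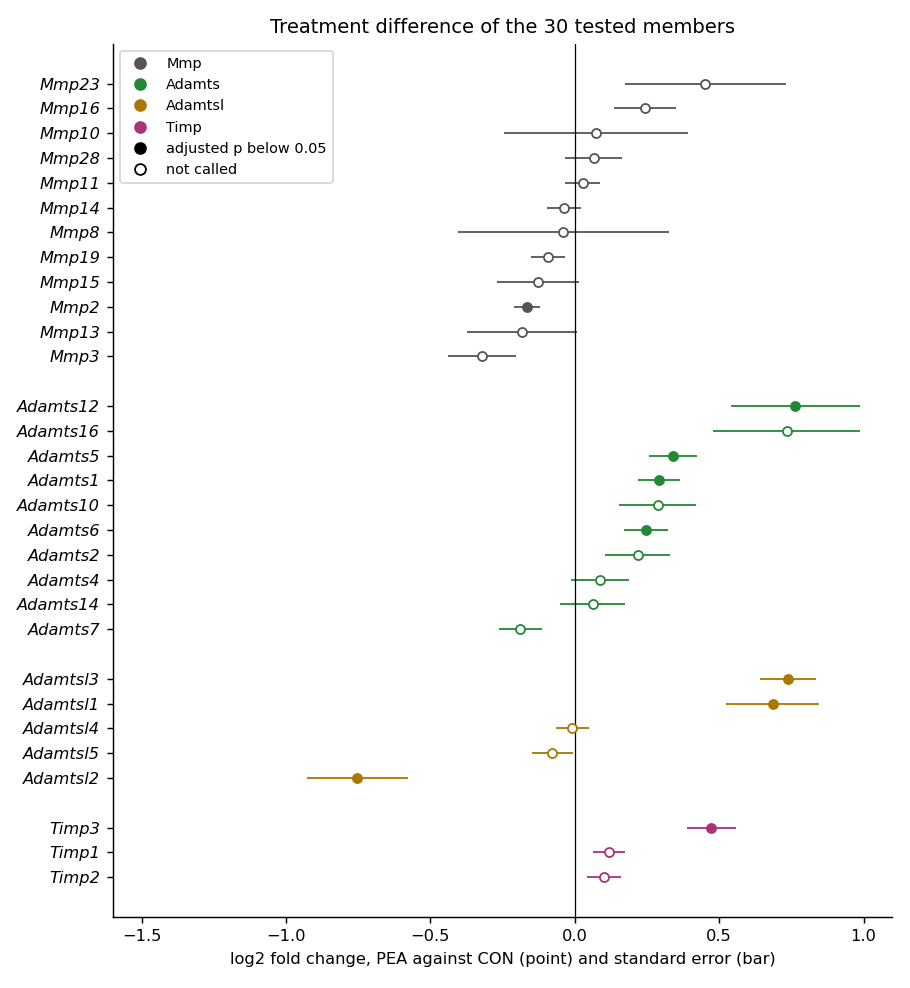
Log2 fold change of PEA against CON (point) with its standard error (bar) for the 30 tested members, grouped by family, with filled points for an adjusted p below 0.05. Filled points lie to the right for 4 Adamts, 2 Adamtsl and 1 Timp gene and to the left for Mmp2 and Adamtsl2.

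Mmp2 (ENSMUSG00000031740, chromosome 8) was the only Mmp gene called. Its normalized count, that is the estimated count divided by 1 size factor per library, had a lowest, median and highest value of 17223, 18948 and 20015 in CON and of 15787, 16607 and 17316 in PEA. The groups touched through CON replicate 3 alone, which lay below PEA replicates 2 and 3. The log2 fold change was -0.17 ± 0.05 (SE, adjusted p = 0.0294, edgeR with Benjamini-Hochberg adjustment). The call was lost when any 1 of CON replicates 1, 4 or 5 or PEA replicates 1, 4, 5 or 6 was left out, with adjusted p between 0.0134 and 0.0689 over all 12 such fits. An annotated antisense RNA covers 24.3% of its exon bases, and the strand setting of the counting was not given in the sources used here.

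The activator and the relatives of Mmp2 gave no call. Mmp14 ranged from 5558 to 7265 normalized counts in CON (median 6850.3) and from 6215 to 6901 in PEA (median 6518), with PEA inside the CON range. Its log2 fold change was -0.04 ± 0.06 with a 95% confidence interval of -0.16 to 0.08. Mmp15, another transmembrane MMP, spread from 514 to 1061 in CON and from 603 to 863 in PEA, a log2 fold change of -0.13 ± 0.14. Here CON replicate 3 held the lowest value and the groups overlapped fully.

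Mmp11, which is activated inside the cell by furin, lay between 925 and 1116 normalized counts in CON and between 973 and 1140.0 in PEA, and its log2 fold change was 0.03 ± 0.06. Mmp19, a secreted MMP of broad specificity, had 880.0 to 937 in CON and 756 to 956 in PEA, a log2 fold change of -0.09 ± 0.06. Both ranges overlapped, and 30.6% of the exon bases of Mmp19 are shared with Tmem198b on the opposite strand.

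Mmp3, the stromelysin that cleaves proteoglycans and activates other proenzymes, had a lowest, median and highest normalized count of 359, 448 and 499 in CON and of 284, 335 and 487 in PEA. Of the PEA libraries, 5 lay below every CON library and PEA replicate 3 lay among the highest CON values. The log2 fold change was -0.32 ± 0.12 and did not pass (adjusted p = 0.0844, edgeR with Benjamini-Hochberg adjustment). Without PEA replicate 3 it was -0.44 (adjusted p = 0.0109, same test). No other of the 12 fits without 1 library called Mmp3, and adjusted p reached 0.166 among them.

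The other 6 tested Mmp genes were scarce, with log2 fold changes from -0.18 (Mmp13, a collagenase) to 0.45 (Mmp23) and adjusted p from 0.145 to 0.959. Mmp13 averaged 42.4 ± 6.19 normalized counts in CON and 37.3 ± 7.04 in PEA, Mmp23 32.7 ± 13.8 and 43.3 ± 11.6, and Mmp28 215 ± 24.5 and 225 ± 23.0. Mmp16, a transmembrane MMP, was nearest to the threshold, at 191 ± 26.8 (CON) and 224 ± 23.0 (PEA) normalized counts and a log2 fold change of 0.24 ± 0.11. Mmp8, a collagenase, averaged 24.2 ± 16.0 normalized counts in CON and 22.9 ± 5.67 in PEA. Mmp10, a second stromelysin, averaged 16.5 ± 4.64 and 16.9 ± 7.26. At such low counts their intervals of -0.81 to 0.73 and of -0.60 to 0.75 allow changes in either direction.

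Among the ADAMTS proteases, the proteoglycan-cleaving Adamts1 (ENSMUSG00000022893) and Adamts5 (ENSMUSG00000022894), neighbours on chromosome 16, both rose. Adamts1 had a lowest, median and highest normalized count of 862, 1057 and 1155 in CON and of 1186, 1259.8 and 1323 in PEA. Every PEA library lay above every CON library, as 2.53% of all tested genes did in this direction. Its log2 fold change was 0.29 ± 0.07 (adjusted p = 0.0183, edgeR with Benjamini-Hochberg adjustment), and it was called in all 12 fits without 1 library.

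Adamts5, the main aggrecan-degrading protease of mouse cartilage, had 1358, 1509 and 1881 in CON and 1777, 1984 and 2299 in PEA as lowest, median and highest normalized counts. CON replicates 2 and 4 lay above the lowest PEA library, and the other 4 CON libraries below it. The log2 fold change was 0.34 ± 0.08 (adjusted p = 0.017, edgeR with Benjamini-Hochberg adjustment), likewise called in all 12 fits. Adamts4, the other well-known aggrecan-cleaving member, ranged from 466 to 756 in CON and from 617 to 753 in PEA and gave 0.09 ± 0.10 on the log2 scale with no call. The interval of Adamts4 ran from -0.13 to 0.30 and thus includes the estimate for Adamts1.

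Adamts6, whose product acts on fibrillin microfibrils, had normalized counts of 465, 569 and 648 in CON and of 598, 659 and 737 in PEA (lowest, median and highest). CON replicate 2 was the single CON library within the PEA range. The log2 fold change was 0.25 ± 0.08 (adjusted p = 0.0465, edgeR with Benjamini-Hochberg adjustment). Its call was held in 2 of the 12 fits without 1 library, those without CON replicate 2 or PEA replicate 1, and adjusted p ran from 0.0126 to 0.111. Adamts10, its close homologue, differed by 0.29 ± 0.13 without a call, from 127 ± 20.3 to 155 ± 24.1 normalized counts.

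Adamts12, which cleaves the cartilage protein COMP, was scarce, with lowest, median and highest normalized counts of 28.3, 40.1 and 71.9 in CON and of 57.9, 70.3 and 90.7 in PEA. CON replicate 2 again was the only CON library within the PEA range. Its log2 fold change was the largest of the tested members at 0.76 ± 0.22 (adjusted p = 0.0378, edgeR with Benjamini-Hochberg adjustment). The call was lost without any 1 of CON replicates 1, 3, 5 or 6 or PEA replicates 3, 4, 5 or 6, with adjusted p between 0.00479 and 0.0899 over the 12 fits. Adamts7, the related COMP-cleaving protease, lay the other way, from 1650 to 2166 in CON (median 1982) and from 1416 to 1892 in PEA (median 1728). Its log2 fold change of -0.19 ± 0.08 was not called (adjusted p = 0.114, same test) and was the single Adamts value below 0. Without CON replicate 3, the lowest control, it was -0.23 and called (adjusted p = 0.0453, same test). No other of the 12 fits without 1 library called Adamts7, and adjusted p reached 0.227 among them.

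The procollagen-trimming proteases Adamts2 and Adamts14 were not called. Adamts2 spread from 808 to 1507 normalized counts in CON and from 1273 to 1459.9 in PEA, with a log2 fold change of 0.22 ± 0.11. Adamts14 spread from 1133 to 2079 in CON and from 1382 to 1836 in PEA, with a log2 fold change of 0.06 ± 0.11. In both genes the PEA libraries lay within the CON range, and CON replicates 3 and 2 held its ends. Adamts16, present at a mean normalized count of 27.2 ± 8.997 in CON and 46.1 ± 12.5 in PEA, had a log2 fold change of 0.73 ± 0.25 that did not pass (adjusted p = 0.0705, edgeR with Benjamini-Hochberg adjustment).

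The ADAMTS-like genes included the member with the smallest adjusted p. Adamtsl3 (ENSMUSG00000070469, chromosome 7) encodes a secreted matrix glycoprotein without protease activity. It had a lowest, median and highest normalized count of 264, 334 and 402 in CON and of 484, 577 and 602 in PEA. The 2 groups were separated by a gap. PEA was higher than CON on the log2 scale by 0.74 ± 0.10 (adjusted p = 0.00047, edgeR with Benjamini-Hochberg adjustment), between 0.68 and 0.80 in the 12 fits without 1 library, all of which called it.

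Adamtsl1 (punctin) had 77.1, 104 and 147 normalized counts in CON and 134, 175 and 215 in PEA as lowest, median and highest. CON replicate 2 alone lay above the lowest PEA library. Its log2 fold change was 0.68 ± 0.16 (adjusted p = 0.0138, edgeR with Benjamini-Hochberg adjustment). Adamtsl2, which binds fibrillin and the latent TGF-β binding protein LTBP1, went in the opposite direction, with 121, 154 and 219 in CON and 65.2, 100.2 and 124 in PEA. CON replicates 2 and 3 lay just below PEA replicate 3, and the remaining libraries were separated. Adamtsl2 fell by 0.75 ± 0.17 on the log2 scale (adjusted p = 0.013, same test). Both genes were called in all 12 fits without 1 library.

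Neither Adamtsl4, which promotes fibrillin fibre formation, nor Adamtsl5 was called. Adamtsl4 ranged from 1120 to 1361 normalized counts in CON and from 1130.2 to 1321 in PEA, a log2 fold change of -0.01 ± 0.06. Adamtsl5 ranged from 1839 to 2206 in CON and from 1712 to 2284 in PEA, a log2 fold change of -0.08 ± 0.07. The calls therefore lay among the 3 less abundant ADAMTS-like genes, and the 2 more abundant ones had intervals of -0.13 to 0.11 and of -0.23 to 0.07.

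**Figure D3:**
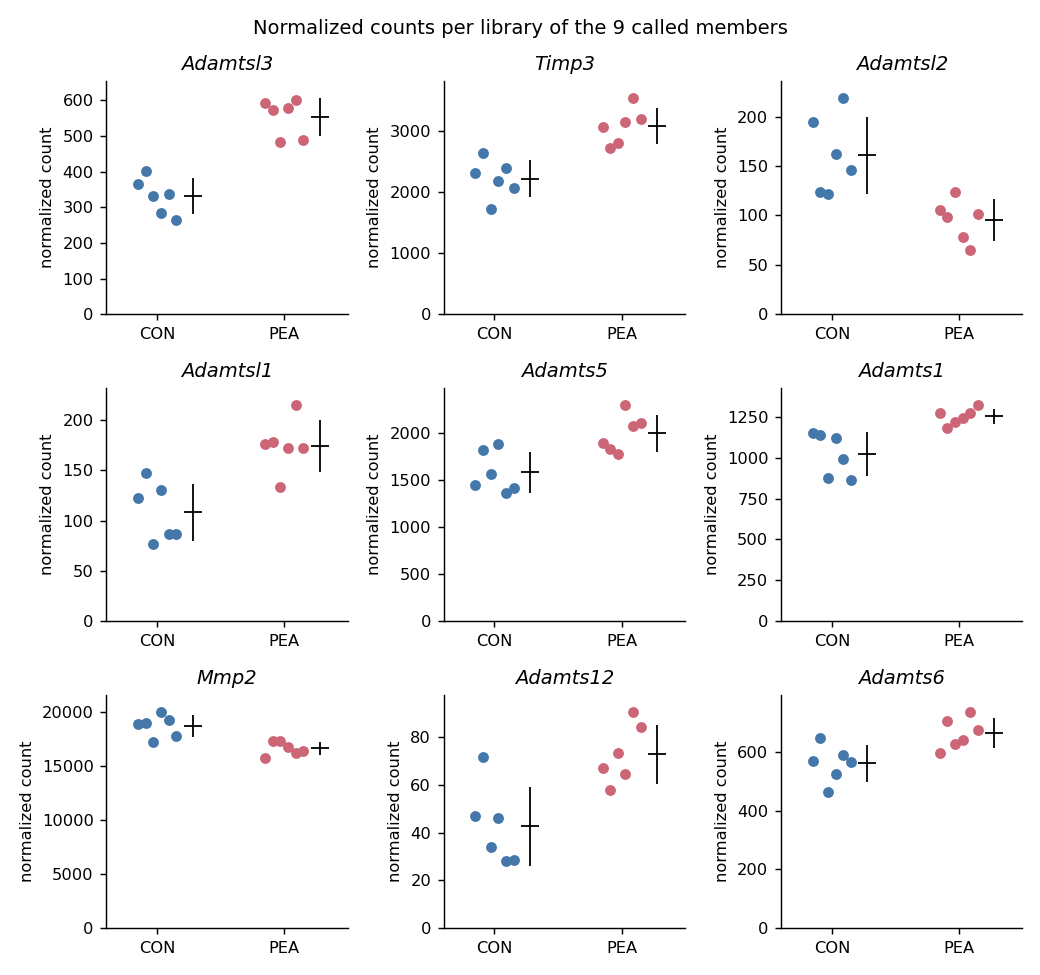
Normalized counts in each of 6 CON (blue) and 6 PEA (red) libraries for the 9 called members, with the mean and SD of each group in black and every axis starting at 0. Adamtsl3, Timp3 and Adamts1 show no overlap, while in Adamts12 and Adamts6 1 CON library lies within the PEA range.

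Of the inhibitors, Timp3 (ENSMUSG00000020044, chromosome 10) rose. Its lowest, median and highest normalized counts were 1735, 2251 and 2645 in CON and 2724, 3110.0 and 3542 in PEA. All PEA libraries exceeded all CON libraries. The log2 fold change was 0.47 ± 0.08 (adjusted p = 0.00311, edgeR with Benjamini-Hochberg adjustment), and the call was held in all 12 fits without 1 library. Timp3 shares 21.3% of its exon bases with Syn3 on the opposite strand, which had 11.3 and 8.34 normalized counts in CON and PEA. Timp3, Adamtsl3 and Adamts1 were the 3 members whose groups did not overlap, all higher in PEA, beside 4.34% of all tested genes in either direction and 1.81% in the lower direction.

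The abundant inhibitors were not called. Timp2 had 24608, 30390.0 and 32304 normalized counts in CON and 29878, 31582 and 33350.0 in PEA as lowest, median and highest. Apart from the low CON replicates 3 and 6, its CON libraries lay within the PEA range, and the log2 fold change was 0.10 ± 0.06 (95% confidence interval -0.02 to 0.23, adjusted p = 0.289, edgeR with Benjamini-Hochberg adjustment). Timp1 had 7024, 7567 and 8778 in CON and 7786, 8391 and 8829.5 in PEA. CON replicates 2 and 3 overlapped with PEA, and the log2 fold change was 0.12 ± 0.05 (adjusted p = 0.166, same test). Without CON replicate 2 it was 0.16 and called (adjusted p = 0.0291, same test). No other of the 12 fits without 1 library called Timp1, and adjusted p reached 0.298 among them.

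Proteases were then set against inhibitors by summing TPM within each library. The 35 protease genes (Mmp and Adamts) summed to 1384 ± 109 TPM in CON and 1367 ± 69.3 TPM in PEA, with largely overlapping ranges of 1200.1 to 1459 and 1258 to 1470.3 TPM. The Timp genes summed to 1728 ± 135 TPM (1530 to 1886.5) in CON and 1983 ± 95.1 TPM (1867 to 2108) in PEA, with 1 CON library reaching into the PEA range. On the TPM scale the median of all tested genes was 0.086 (log2) higher in PEA than in CON, so the sums are best read within a library.

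Within libraries, the ratio of Timp to protease TPM was 1.25 ± 0.0338 in CON (1.20 to 1.30) and 1.45 ± 0.0573 in PEA (1.36 to 1.52). The ratio of Timp2 to Mmp2 was 1.25 ± 0.0591 in CON (1.13 to 1.29) and 1.501 ± 0.0420 in PEA (1.42 to 1.53). Neither ratio overlapped between the groups, and since both are scores over the members, no test is given. With Mmp2 and Timp2 taken out of the sums, the ratio was 1.26 ± 0.150 in CON (1.11 to 1.52) and 1.38 ± 0.109 in PEA (1.27 to 1.54), and the groups overlapped. The ratios are of RNA per length and say nothing of active enzyme.

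Mmp2 made up 61.2% ± 1.36 of the protease TPM in CON and 58.3% ± 0.826 in PEA, and the Adamts genes together 14.2% ± 1.05 and 16.5% ± 0.601. The ranges of both shares met at their edges, at 59.6% to 63.4% against 57.5% to 59.8% for Mmp2 and at 12.9% to 16.0% against 15.8% to 17.3% for Adamts. Timp3 accounted for 2.52% ± 0.229 of the Timp TPM in CON and 3.23% ± 0.337 in PEA. The ratio of Timp3 to the sum of Adamts1 and Adamts5, proteases of the matrix that holds TIMP3, was 0.825 ± 0.102 in CON and 0.918 ± 0.0577 in PEA, with overlapping ranges of 0.701 to 0.961 and 0.869 to 1.03.

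**Figure D4:**
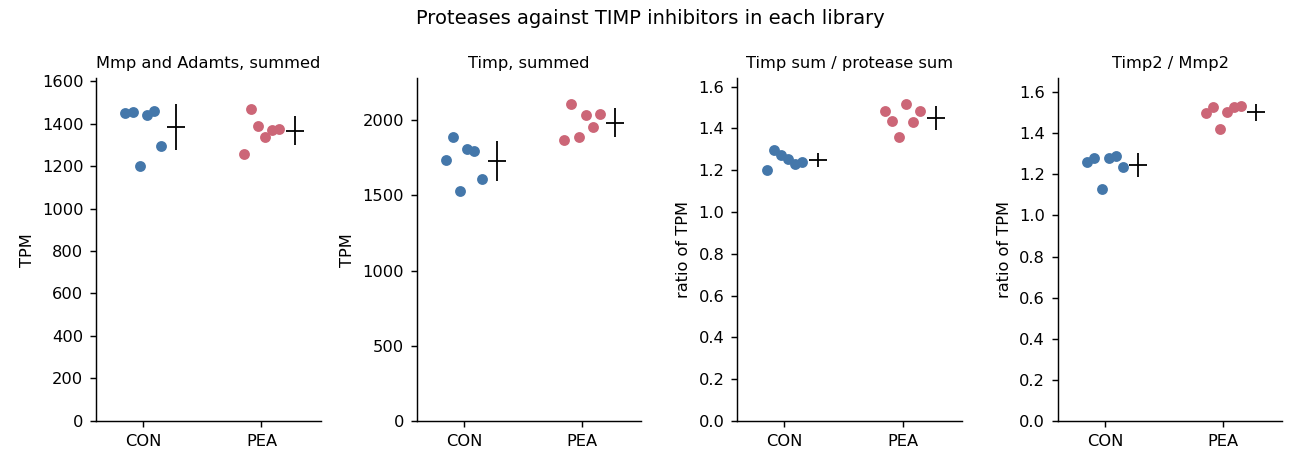
Summed TPM of the proteases, summed TPM of the Timp genes, their ratio and the ratio of Timp2 to Mmp2 in each of 6 CON (blue) and 6 PEA (red) libraries, with mean and SD in black. The protease sums overlap, whereas the ratio of Timp to protease runs from 1.20 to 1.30 in CON and from 1.36 to 1.52 in PEA.

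The 14 members under the filter on low counts were Mmp7, Mmp9, Mmp12, Mmp17, Mmp24, Mmp25, Mmp27, Adamts3, Adamts8, Adamts9, Adamts15, Adamts17, Adamts20 and Timp4. They include matrilysin (Mmp7), gelatinase B (Mmp9), macrophage elastase (Mmp12) and the inhibitor Timp4. Their estimated counts ran from 0 to 30 in any library, the highest being Mmp12 in CON, and their mean level over all libraries was at most 0.296 TPM (Mmp9). The normalized count of Mmp9 was 6.14 ± 2.17 in CON and 7.05 ± 3.62 in PEA, and that of Timp4 was 7.30 ± 3.22 and 4.85 ± 5.40. Adamts8 had 0 counts in all 6 CON libraries, where a count of 0 allows up to 3, and 0 to 6 in PEA, so no fold is given. In a fit without the filter, Adamts8 alone of the 14 passed (adjusted p = 0.0426, edgeR with Benjamini-Hochberg adjustment), and the others had adjusted p from 0.490 to 0.942.

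Other genes of matrix proteolysis were read from lists by role, beside the same 11.0% of all genes called by edgeR (6.31% higher) and 14.5% by DESeq2. Of 8 tested activators and clearance receptors, such as furin, the plasminogen activators and Lrp1, none was called by edgeR or DESeq2, and 2 were higher at an unadjusted p under 0.05. In a list of 7 further inhibitors and modulators of proteases, which includes the procollagen proteinase enhancers Pcolce and Pcolce2, the serpins Serpine2 (log2 fold change 0.37 ± 0.10) and Serpinb2 (0.43 ± 0.14), which block plasminogen activators, rose. Of 7 inducers and docking proteins, Thbs2, a matricellular protein known to bring MMP2 to its clearance receptor, rose (0.41 ± 0.13). None of these 22 genes fell by edgeR, where 1 inducer or docking protein was lower at an unadjusted p under 0.05 and DESeq2 called 1 lower (Bsg). Thbs2 was not called by DESeq2 (adjusted p = 0.0589), which called Itgb3 higher in that list.

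The other 3 lists stand beside the same 6.31% of all tested genes called higher by edgeR and 7.48% by DESeq2. Of 13 tested ADAM and astacin metalloproteinases, Adam12, known from myoblast fusion, and Adam15 rose, with log2 fold changes of 0.58 ± 0.16 and 0.32 ± 0.06. Of 10 tested substrates of the family 4 rose, namely the small proteoglycans Dcn (0.48 ± 0.15) and Bgn (0.28 ± 0.08) and the latent TGF-β binding proteins Ltbp1 (0.22 ± 0.05) and Ltbp2 (0.22 ± 0.07). Of 12 transcription factors known to act on Mmp promoters, the AP-1 subunit Junb rose (0.41 ± 0.08). DESeq2 called each of these genes except Dcn (adjusted p = 0.0512). In these 3 lists no gene fell by edgeR or DESeq2, nor lay lower at an unadjusted p under 0.05. Adam15, Ltbp1 and Junb were called in all 12 fits without 1 library, and each of the other 7 genes lost its call in 5 to 10 of them.

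Cell type markers were read in the same libraries, beside 6.31% of all tested genes called higher and 4.74% lower by edgeR. By DESeq2 these shares were 7.48% and 7.03%. The TPM sums of the markers carry the offset of 0.086 (log2) toward PEA given above. All 5 markers of dividing cells were called higher in PEA, namely Mki67 (log2 fold change 1.03 ± 0.24), Top2a (0.95 ± 0.14), Cenpf (0.78 ± 0.21), Cdk1 (0.58 ± 0.11) and Ccnb1 (0.57 ± 0.15), and their summed level ran from 43.1 to 109 TPM in CON and from 114 to 132 TPM in PEA. All 11 myotube markers lay below 0, and 7 of them were lower at an unadjusted p under 0.05, beside 13.1% of all tested genes. Myh8, Tnnt3 and Tnni2 were called lower by edgeR and Tnnt3, Tnni2, Acta1 and Mylpf by DESeq2. The myotube markers summed to 7520 to 11814 TPM in CON and to 8151 to 9383 TPM in PEA. Among 7 markers of unfused myoblasts or reserve cells Cd34 rose and 2 lay above 0 (median log2 fold change -0.08), 1 was lower at an unadjusted p under 0.05 and DESeq2 called Spry1 lower, with sums of 1638 to 2143 TPM in CON and 1790 to 2134 TPM in PEA. Over the 12 fits without 1 library, the called myotube markers lost the call in 0 (Tnni2) to 8 (Myh8) and the dividing-cell markers in 0 to 3, and Cd34 was called in all.

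None of the 5 tested fibroblast markers was called by edgeR or DESeq2 (1 higher and 1 lower at an unadjusted p under 0.05), with sums of 926 to 1219 TPM in CON and 944 to 1157 TPM in PEA. The macrophage markers summed to 6.64 to 15.7 TPM in CON and 9.63 to 16.0 TPM in PEA, with Ptprc at 0 in 10 of the 12 libraries. The 4 endothelial markers summed to less than 0.8 TPM in every library, and of the adipocyte markers only Plin1 was in the table, at 0 in 8 of the 12. The part that a changed mix of dividing, unfused and fused cells has in the 9 calls was not tested.

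The libraries of CON were not equally spread around their mean in these genes. CON replicate 3 held the lowest CON value for 17 of the 30 tested members and CON replicate 2 the highest for 13. No PEA library held the lowest PEA value for more than 8 members, and PEA replicate 5 held the highest for 9. CON replicate 2 lay within the PEA range for Adamts5, Adamts6, Adamts12, Adamtsl1 and Adamtsl2. Over the fits without 1 library the number of called members ran from 6 to 11, and the 11 came without CON replicate 2, where Adamts16 and Timp1 were added.

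**Figure D5:**
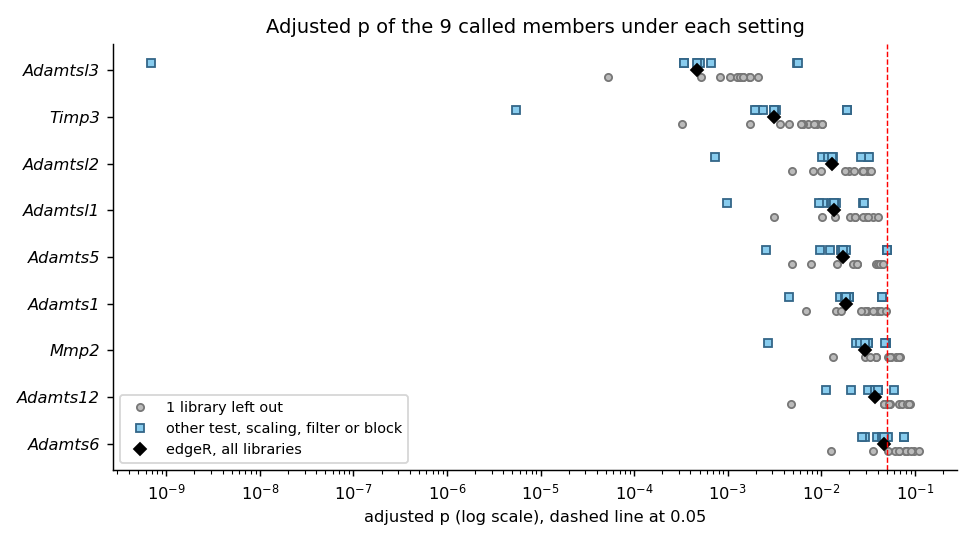
Adjusted p of the 9 called members on a log axis for edgeR with all libraries (diamonds), for fits with another test, scaling, filter or block (squares) and for fits without 1 library (circles), with a dashed line at 0.05 and without the exact permutation test. Adamtsl3, Timp3, Adamtsl2, Adamtsl1 and Adamts1 stay left of the line throughout, whereas Mmp2, Adamts12 and Adamts6 cross it. Adamts5 crosses it only in limma with pseudocount 0.5 (adjusted p = 0.0502).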

How the data were processed

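The 12 libraries of C2C12 myotubes (6 CON, 6 PEA) were grouped by their labels. The 13 sample entries include a run and a top-up of PEA replicate 2, which share 1 set of values and were counted as 1 library. Per the labels, mRNA was selected by poly-A and libraries were made from total RNA. The authors aligned reads to mm39 with STAR in Partek Flow, with the version given as 4.4.1d in the submitters' processing notes, and deposited an estimated count per Ensembl gene without normalization. The other table they deposited holds a signal: each estimated count over the DESeq2 size factor of its library, called the normalized count here. Of the counts above 0, 69.7% were not whole (tolerance 1e-6), and all were rounded before testing.

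The members, the gene lists and the marker lists were chosen with earlier results of these data known. Testing used edgeR 4.0.16 in R 4.3.3 (TMM, default filter on low counts, quasi-likelihood test, Benjamini-Hochberg adjustment over 13142 genes, threshold 0.05), and the SE was derived from the F statistic. Alternatives were DESeq2 1.42.0, limma 3.58.1 (voom, and log2 normalized counts with a pseudocount of 1 or 0.5), median-ratio size factors, no filter, a minimum of 10 counts per library, counts without rounding, the replicate number as a block, each library left out, and an exact two-sided permutation test over 924 splits. The use of the permutation test for the counts of calls was chosen after seeing the data. Tests were tested on simulated data. Tables and figures were made with pandas 2.3.3, numpy 2.4.6 and matplotlib 3.10.9 in Python 3.11.15.

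TPM used the union of exon bases (GENCODE for GRCm39), and 16343 of the 16382 identifiers had an annotation. Promoter sequence was read from GRCm39 upstream of the Ensembl canonical start. All members were named, with the lowest, median and highest library value for those called, the range or group mean for the other tested members and a joint range for most members under the filter. Genes of the lists were named where called by edgeR or DESeq2, and other list genes only as examples of a role or, among the markers, for counts of 0. No pair of libraries agreed within sampling noise (smallest chi-square per gene 3.67). The median total was 18420606 estimated counts. Errors hold the spread between libraries and counting error, and the limit for a count of 0 covers counting error alone.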

Additional observations from a re-analysis of the deposited data

Results flagged for a closer look

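Among 62 groups of 6 libraries examined, of which chance picks out about 1 in 20, 1 library stood far from the others of its group. Mmp3 had 487.2 normalized counts in PEA replicate 3, against 284 to 351 in the other 5 PEA libraries, a gap of 0.668 of the range of the group. The difference of Mmp3 between PEA and CON was -0.32 on the log2 scale with this library and -0.44 without it.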

How the results depend on the processing

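For the 30 tested members over the alternatives, 595 values kept direction and side of the threshold, 36 lost the call, 6 gained one and 22 changed sign, none of these in a called member. Mmp8 turned positive in limma-voom (0.2086), in limma with pseudocount 1 and 0.5 (0.1163 and 0.1235), with the replicate block (0.0803) and in the permutation test (0.1163), and Mmp10 turned negative in limma (-0.0308 and -0.0342), with the block (-0.0291) and in the permutation test (-0.0308). With 1 library left out Mmp8 ran from -0.1949 to 0.3443 and Mmp10 from -0.1443 to 0.2237, and sign changes also occurred in Mmp11 (-0.0065 without CON replicate 1, otherwise up to 0.0499), Adamts14 (-0.0185 without CON replicate 3, otherwise up to 0.1531) and Adamtsl4 (0.0086 and 0.0212 without CON replicates 5 and 6, 0.0151 and 0.0063 without PEA replicates 1 and 3, otherwise down to -0.0378). All genes called numbered 1452, against 943 and 944 by limma on log2 normalized counts (pseudocount 1 and 0.5) and 570 by the exact permutation test, and with 1 library left out they numbered at least 778 (PEA replicate 6 left out) and at most 2203 (CON replicate 2 left out). The cause was not tested.

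The 9 called members became 3 under the exact permutation test (Adamtsl3, Timp3 and Adamts1), whose smallest attainable p is 0.00216, or 0.0499 after adjustment, and 6 to 11 with 1 library left out. DESeq2 called 11, adding Adamts16 and Mmp3. Adamts6 was lost without a filter (adjusted p = 0.052) and in limma with pseudocount 1 and 0.5 (adjusted p = 0.0758 and 0.0759). Adamts8, with 0 counts in all CON libraries, was gained without a filter (edgeR, adjusted p = 0.0426), and Adamts5 was lost in limma with pseudocount 0.5 (adjusted p = 0.0502).

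Same-numbered libraries of the groups correlated between -0.0829 and 0.0649 in their deviations. Whether they came from the same repeat of the experiment was not tested, because the labels give no map of well to library. With the replicate number as a block, 1570 genes and 8 members were called, Adamts12 being lost (adjusted p = 0.0593).

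The ratio of Timp to protease TPM in CON was 1.25, against 1.2018 with the length of the longest transcript, 1.26 without Mmp2 and Timp2 and 1.4553 with the Mmp genes alone as proteases. In PEA it was 1.45, against 1.3823 without Mmp2 and Timp2, where the groups overlapped, 1.3945 with the length of the longest transcript and 1.7374 with Mmp alone. Leaving out 1 library gave 1.2398 to 1.259 in CON and 1.438 to 1.4702 in PEA.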
